A study of Mus musculus with 10 samples.

Results

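The genes of fatty acid synthesis under the control of SREBP1 were followed in bulk RNA-seq of 10 mouse livers. They were taken by symbol as a set of 10 genes, Srebf1, Mlxipl, Acly, Acaca, Fasn, Scd1, Elovl6, Me1, Thrsp and Pnpla3, out of 55291 genes in the count table. All 10 were found and all 10 passed the filter on low counts, which 17015 genes passed in all. The livers came from female Cas9 Lox-Stop-Lox mice of 16 to 20 weeks, which carry a Cas9 transgene that is silent until Cre removes a stop cassette. Every mouse received an AAV8 vector that encoded 1 guide RNA and Cre under the hepatocyte promoter TBG, so that all groups express Cre and Cas9 in hepatocytes and other liver cells were not targeted. The guide was non-targeting in the NTC groups and directed at Bap1, which encodes a nuclear deubiquitinase, in the sgBap1 groups. After 10 days the mice were injected with carbon tetrachloride (CCl4), a toxin that kills the hepatocytes around the central vein, or with its vehicle, olive oil, and livers were taken 48 hours later. The CCl4 was given as 1 part in 9 parts of olive oil at 10 µL/g body weight, and the same oil was the vehicle, so no group was without an oil injection. The groups were NTC-Veh (n = 2), sgBap1-Veh (n = 2), NTC-CCl4 (n = 3) and sgBap1-CCl4 (n = 3). The feeding state and the time of day at harvest are not given in the sources used here.

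In liver, SREBP1 is made as a precursor in the endoplasmic reticulum membrane, where SCAP escorts it and the INSIG proteins retain it. After transport and cleavage its free domain enters the nucleus and activates the genes that turn citrate into fatty acids, and insulin raises both its transcription and its cleavage. The glucose-responsive factor ChREBP, encoded by Mlxipl, acts on many of the same genes. Transcript levels, which are what was measured, do not show how much of either factor is cleaved or active, and counts of Srebf1 pool the transcripts of its different start sites.

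Levels are given as CPM, the estimated count of a gene over the total of its library times a fixed factor, after scaling by the trimmed mean of M values (TMM). Total estimated counts ran from 33047900 to 52199900 per liver, and 3 counts correspond to at most 0.112 CPM. Bap1, the targeted gene, lies on chromosome 14 (31251450 to 31259944, plus strand, GRCm38). It stood at 34.8 CPM in both NTC-Veh livers and at 17.6 and 19.5 CPM in the sgBap1-Veh livers. With CCl4 it stood at 30.1, 31.5 and 29.5 CPM in the NTC livers and at 17.0, 21.8 and 19.1 CPM in the sgBap1 livers, so all 10 libraries sat on the side of their label. The samples were whole liver pieces and also held cells that were not targeted. The 11 hepatocyte marker genes found in the table (Alb, Ttr, Apoa1 and others) summed to between 81600 and 179000 CPM per liver. One library stood apart, sgBap1-CCl4 replicate 2, which held transcripts of fat cells. Its 10 adipocyte marker genes summed to 597 CPM, against 30.9 to 47.8 CPM in the other 9 livers. Adipoq, the fat cell hormone adiponectin, stood at 36.4 CPM there and at 0 to 0.0425 CPM elsewhere, and Plin1, the lipid droplet coat of fat cells, at 34.5 CPM there and at 0 to 0.0188 CPM elsewhere. Pparg (11.49 CPM) and Adrb3 (11.04 CPM), also among the 10 adipocyte markers, were not highest in that liver. They reached 20.38 CPM in NTC-CCl4 replicate 2 and 12.17 CPM in NTC-Veh replicate 1. The liver with fat cell transcripts was also highest in the sum of 5 markers of stellate cells, the collagen-making cells of the liver. They summed to 596 CPM against 35.9 to 280 CPM in the other 9. Col1a1 (401.6 CPM), Acta2 (95.47 CPM), Pdgfrb (50.27 CPM) and Des (26.99 CPM) were highest there. Lrat was not, at 21.86 CPM against 22.66 and 28.59 CPM in the other sgBap1-CCl4 livers. That liver was lowest in the sum of hepatocyte markers, at 81600 CPM. Fat cells also express several of the 10 genes, so results that rest on this liver are given with and without it.

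The genes lie on 7 chromosomes, and 4 of them, Srebf1, Acly, Acaca and Fasn, share chromosome 11. In GENCODE vM21 coordinates of GRCm38, Srebf1 spans 60199089 to 60222581 on the minus strand, Acly 100476353 to 100528000 on the minus strand, Acaca 84129672 to 84401651 on the plus strand and Fasn 120805846 to 120824547 on the minus strand. Mlxipl lies on chromosome 5 (135089890 to 135138382, plus strand), Scd1 on chromosome 19 (44394455 to 44407879, minus strand) and Elovl6 on chromosome 3 (129532355 to 129638495, plus strand). Me1 lies on chromosome 9 (86581371 to 86695953, minus strand), Thrsp on chromosome 7 (97412938 to 97417730, minus strand) and Pnpla3 on chromosome 15 (84167837 to 84187236, plus strand). All 10 are protein-coding. Of the 50-base stretches of Acaca, 30.4% also occur in another gene, mostly Gm5182, and of those of Me1 28.3%, mostly in Gm7049, so the counts of both are uncertain where the counting could split reads. The share was 5.14% or less for the other 8 genes. Srebf1 overlaps Rai1 on the opposite strand, and the share of its 50-base stretches also found in Rai1 was 1.03%.

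Promoter windows from RefSeq (GRCm38.p6), each from 250 bases before to 50 bases after a transcription start, were found for 9 of the 10 genes, 13 windows in all. Scd1 was not matched. On both strands they were searched for TCACNCCAC (the sterol regulatory element to which SREBPs bind), CACGTG (an E-box, bound by USF and, in spaced pairs, by ChREBP with its partner MLX), CCAAT (bound by NF-Y) and GGGCGG (bound by Sp1). The sterol regulatory element letters were found in 1 gene, Mlxipl, and in 1.24% of all 32851 windows. CACGTG was also found in Mlxipl alone, against 7.15% of all windows. CCAAT was found in 7 of the 9 genes, against 37.4% of all windows, and GGGCGG in 5 of 9, against 35.7%. Since a gene can have several windows, shares of genes and of windows are not on the same basis. A match of these letters is a description of the sequence and not a binding site, and a window without them says only that these letters are not in it.

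The 250 bases before each of the 3 Srebf1 starts, where the different SREBP1 transcripts begin, and before the internal Mlxipl start with the sterol regulatory element are shown, since these are the regulators whose own transcripts are compared. Each is written 5′ to 3′ along the gene's strand, with matches to any of these motifs in capitals (ATTGG and CCGCCC are CCAAT and GGGCGG read on the other strand). None of these bases is exonic in the annotation. The outer Srebf1 window lies outside the gene and holds a CCAAT box, the middle and inner windows lie inside the gene and hold 2 Sp1 matches each, and the inner one also holds a CCAAT box.
Srebf1 outer start, chr11:60222582-60222831, minus strand: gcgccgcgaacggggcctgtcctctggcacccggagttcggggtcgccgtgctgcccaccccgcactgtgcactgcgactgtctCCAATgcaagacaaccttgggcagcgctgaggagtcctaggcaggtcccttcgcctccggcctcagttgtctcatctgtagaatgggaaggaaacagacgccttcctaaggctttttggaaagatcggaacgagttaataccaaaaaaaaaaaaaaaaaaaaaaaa
Srebf1 middle start, chr11:60220628-60220877, minus strand: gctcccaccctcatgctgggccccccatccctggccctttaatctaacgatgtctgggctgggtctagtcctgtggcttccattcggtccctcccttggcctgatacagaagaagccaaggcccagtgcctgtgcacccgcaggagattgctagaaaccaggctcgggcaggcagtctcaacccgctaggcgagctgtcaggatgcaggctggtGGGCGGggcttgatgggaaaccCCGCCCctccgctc
Srebf1 inner start, chr11:60210472-60210721, minus strand: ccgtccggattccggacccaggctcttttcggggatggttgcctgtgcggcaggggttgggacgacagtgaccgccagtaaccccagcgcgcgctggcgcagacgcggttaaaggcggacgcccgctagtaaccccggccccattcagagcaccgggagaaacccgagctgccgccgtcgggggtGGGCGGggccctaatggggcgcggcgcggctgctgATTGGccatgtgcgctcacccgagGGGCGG
Mlxipl internal start, chr5:135106641-135106890, plus strand: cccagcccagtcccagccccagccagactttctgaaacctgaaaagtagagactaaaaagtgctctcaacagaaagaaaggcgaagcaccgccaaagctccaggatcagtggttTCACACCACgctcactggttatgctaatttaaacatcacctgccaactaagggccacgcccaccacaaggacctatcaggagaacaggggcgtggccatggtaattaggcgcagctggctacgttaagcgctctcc

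The effect of the Bap1 guide without toxin was asked by setting sgBap1-Veh against NTC-Veh. All 10 genes were higher in both sgBap1-Veh livers than in both NTC-Veh livers, a separation that 21.7% of the 17015 genes tested showed in that direction. Srebf1 and Acly passed the test, at 1.87-fold and 2.43-fold, and the other 8 did not. The share of all tested genes called higher was 0.276%. The median log2 fold change of the 10 genes was 1.27, against 0.02 for all tested genes. With 2 livers in each group, an exact permutation test of a single gene could not reach a two-sided threshold of 0.05, so the calls rest on edgeR's quasi-likelihood test, which shares the spread over genes and groups.

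**Figure D1:**
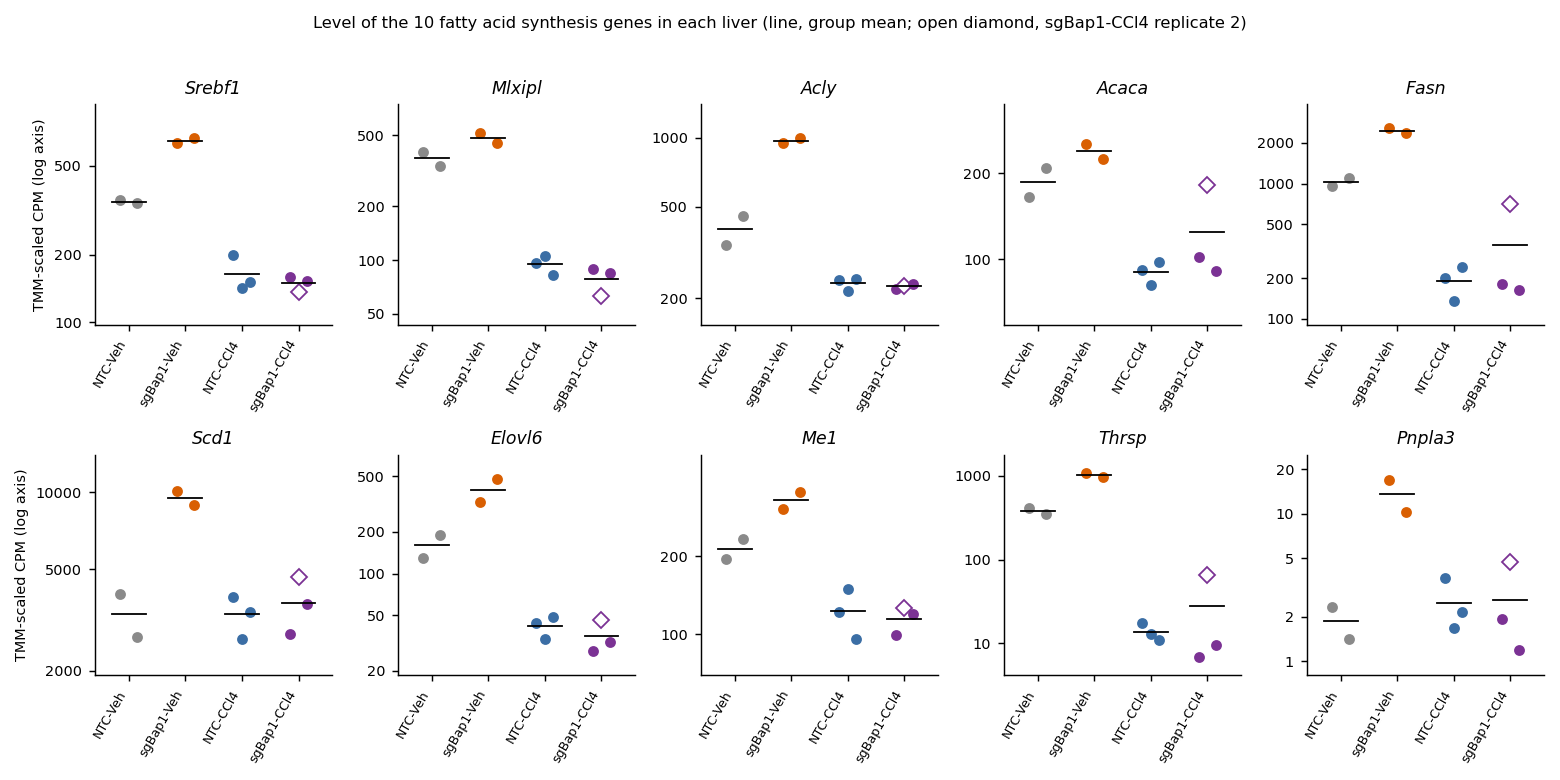
Each panel plots the level of 1 gene in TMM-scaled CPM (log axis) by group. Points are livers, lines are group means and the open diamond is sgBap1-CCl4 replicate 2. In all 10 panels both sgBap1-Veh livers lie above both NTC-Veh livers, and in 8 panels (not Scd1 or Pnpla3) the 3 NTC-CCl4 livers lie below both NTC-Veh livers.

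Among the regulators, Srebf1 stood at 350 and 340.2 CPM in the NTC-Veh livers and at 626.7 and 665 CPM in the sgBap1-Veh livers. The replicates lay close together and the groups far apart, and the log2 difference was 0.90 (SE 0.158, 95% interval 0.552 to 1.26, edgeR adjusted p = 0.0487). This call is near the threshold, and it was lost in 8 of the 10 fits that left out 1 liver (edgeR adjusted p from 0.05 to 0.246), all but those without NTC-CCl4 replicate 1 or sgBap1-CCl4 replicate 2. Mlxipl, encoding ChREBP, stood at 404.5 and 338.4 CPM with the control guide and at 516.3 and 450.6 CPM with the Bap1 guide. Its groups did not overlap, but the log2 difference of 0.38 had an interval that included 0 (-0.0256 to 0.786, edgeR adjusted p = 0.44).

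The enzymes followed in the order of the pathway. Acly, ATP citrate lyase, makes acetyl-CoA from citrate. It stood at 341.3 and 457.1 CPM in the NTC-Veh livers and at 946.5 and 994.4 CPM in the sgBap1-Veh livers, a log2 difference of 1.28 (SE 0.146, 95% interval 0.958 to 1.61, edgeR adjusted p = 0.0191). This call was lost without NTC-Veh replicate 2, sgBap1-Veh replicate 1 or sgBap1-Veh replicate 2 (edgeR adjusted p from 0.0578 to 0.0662). Me1, the cytosolic malic enzyme that supplies NADPH, stood at 194.9 and 234.1 CPM against 304.3 and 356.7 CPM, a log2 difference of 0.62 (edgeR adjusted p = 0.223). Acaca, acetyl-CoA carboxylase 1, which makes malonyl-CoA, stood at 165 and 208.6 CPM against 253.4 and 225.2 CPM. That is the smallest difference of the 10 genes, 0.36 on the log2 scale (95% interval -0.291 to 1.01, edgeR adjusted p = 0.704). Fasn, fatty acid synthase, which builds palmitate, stood at 959.9 and 1095 CPM against 2560 and 2352 CPM. The groups were far apart, yet with all 10 livers the interval of the log2 difference of 1.26 ran from -0.254 to 2.77 (edgeR adjusted p = 0.507).

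Scd1, the stearoyl-CoA desaturase that makes monounsaturated fatty acids, was the most abundant of the 10 genes. It stood at 3982 and 2722 CPM in the NTC-Veh livers and at 10070 and 8925 CPM in the sgBap1-Veh livers, a log2 difference of 1.50 (interval 0.868 to 2.14, edgeR adjusted p = 0.0552). Elovl6, the elongase that extends palmitate to stearate, stood at 129.8 and 189.5 CPM against 327.6 and 477 CPM, a log2 difference of 1.33 (interval 0.655 to 2.01, edgeR adjusted p = 0.1). Both missed the threshold while their intervals excluded 0, since the adjusted p counts all 17015 genes tested.

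Of the remaining genes, Thrsp (Spot 14), a nuclear protein of lipogenic tissues that follows thyroid hormone and carbohydrate, stood at 408.8 and 352.9 CPM in the NTC-Veh livers and at 1071 and 964.8 CPM in the sgBap1-Veh livers. The groups were far apart, but the interval of the log2 difference of 1.42 was wide, from -0.805 to 3.64 (edgeR adjusted p = 0.642). Pnpla3, a lipid droplet lipase that SREBP1 induces, was low in all livers, at 2.31 and 1.41 CPM against 16.9 and 10.2 CPM. It had the largest log2 difference of the 10 genes, 2.87 (interval 1.41 to 4.32, edgeR adjusted p = 0.105).

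The wide intervals of Fasn, Thrsp and Acaca went with the liver that held fat cell transcripts, which belongs to neither group of this comparison but enters the shared estimate of the spread. Without it the fold changes barely moved, while 6 of the 10 genes passed instead of 2, against 0.654% of 16825 genes called higher. The 6 were Srebf1 (edgeR adjusted p = 0.0322), Acly (0.00919), Fasn (0.045), Scd1 (0.032), Thrsp (0.0318) and Pnpla3 (0.0322). Elovl6 (0.0609), Me1 (0.196), Mlxipl (0.253) and Acaca (0.281) did not pass. With DESeq2's Wald test on all livers, 5 passed, Srebf1, Acly, Scd1, Elovl6 and Pnpla3, against 1.41% of 27893 genes. All shares given for DESeq2 are over the 27893 genes with a p-value, including those its low-count filter left without an adjusted p. They are thus lower than shares of the genes that could be called, and not on the same basis as edgeR's shares. The defining fat cell markers were at or near 0 in the vehicle livers: Adipoq was at 0.0272 CPM in 1 NTC-Veh liver and at 0 in the other 3, Plin1 was at 0 in all 4, and the summed 10 markers ran from 45.4 to 47.6 CPM with the control guide and from 39.3 to 46.4 CPM with the Bap1 guide.

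**Figure D2:**
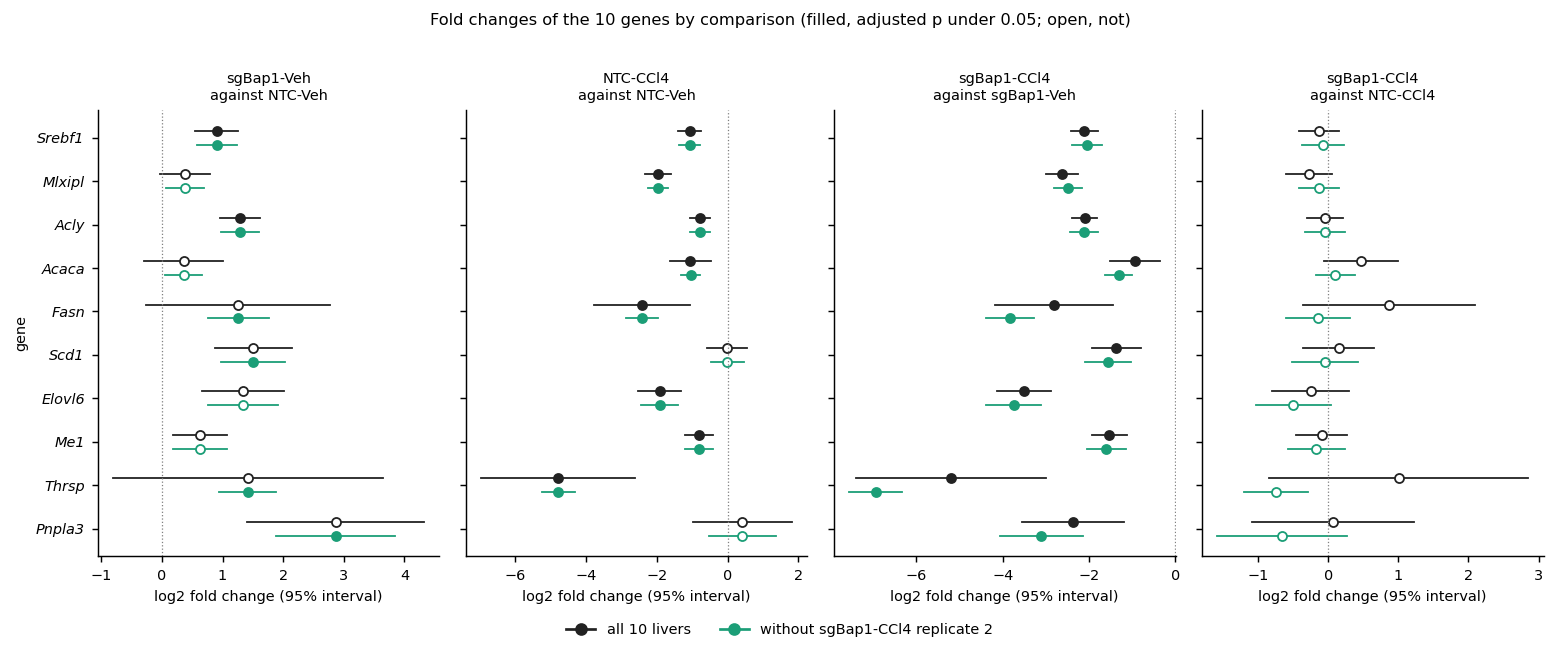
Log2 fold changes of the 10 genes (points) with 95% intervals (lines) in the 4 comparisons of groups, with all 10 livers in black and without sgBap1-CCl4 replicate 2 in green. Filled points have an edgeR adjusted p under 0.05. In the vehicle comparison the points coincide while the intervals of Fasn and Thrsp are narrower without that liver, and 6 genes are filled in place of 2.

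Other values moved with the guide in these 4 livers. The 8 leukocyte marker genes summed to 133 and 189 CPM in the NTC-Veh livers and to 270 and 358 CPM in the sgBap1-Veh livers. All 8 had a positive log2 fold change (median 1.02), and by edgeR 1 passed, Ptprc, the pan-leukocyte antigen CD45, at 2.07-fold (edgeR adjusted p = 0.0418). Without sgBap1-CCl4 replicate 2 edgeR called 2 of the 8, Ptprc and Lyz2, and DESeq2's Wald test called 5, Ptprc, Lyz2, Adgre1, Cd68 and Clec4f. The 11 hepatocyte markers summed to between 144000 and 179000 CPM with the control guide and between 125000 and 133000 CPM with the Bap1 guide. By edgeR 0 of the 11 passed (2 had an unadjusted p under 0.05), and by DESeq2 1 did, Ahsg, which was lower. Scaled on these 11 genes, the median of all genes shifted to 0.243 on the log2 scale, 2 of the 10 fatty acid synthesis genes were again called higher, and 0.635% of all genes were called higher and 0.0529% lower, against 0.276% and 0.129% by TMM. Their part in the levels of the 10 genes was not tested. In bulk liver, fewer cells of a type and less RNA per cell cannot be told apart.

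The rest of the pathway was read from 5 further lists of 65 genes, all of which were tested. In sgBap1-Veh against NTC-Veh, edgeR called 1 of the 65, against 0.406% of all tested genes called in either direction, and DESeq2's Wald test called 9, 7 higher and 2 lower, against 1.96%. A positive log2 fold change was found for 42, against 53.4% of all tested genes. Of the 10 genes listed as SREBP processing edgeR called 0 (2 had an unadjusted p under 0.05), and DESeq2 called 1, Srebf2, which was lower. That list also holds genes that do not process the SREBP1 precursor, such as Srebf2 itself and Lpin1. Srebf2, the paralogue that drives cholesterol synthesis, stood at 107.3 and 121.2 CPM against 78.8 and 83.7 CPM, a log2 difference of -0.49 (edgeR adjusted p = 0.151, DESeq2 adjusted p = 0.047). Scap, the escort of the precursor, had a log2 difference of -0.08, Insig2 of -0.42 and Insig1 of 0.50, none of which passed by either tool (edgeR adjusted p = 0.886, 0.312 and 0.537). Nr1h3, the oxysterol receptor LXRα that induces Srebf1, had one of 0.20 (edgeR adjusted p = 0.396). The median over the 10 genes listed as SREBP processing was -0.08. Over the 14 genes listed as nuclear factors it was 0.02. That list also holds Irs2, an insulin receptor substrate and not a nuclear factor.

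The 15 genes listed as substrate supply, among them glycolysis, fructose use and the NADPH-producing steps, had a median log2 fold change of 0.58. That list also holds Acacb and Mid1ip1, which belong to the acetyl-CoA carboxylase step. In that list 14 of 15 values were positive and 0 passed by edgeR, while 10 of 15 had an unadjusted p under 0.05, against 12.3% of all tested genes. Without sgBap1-CCl4 replicate 2 edgeR called 1, G6pdx (adjusted p = 0.0475), and DESeq2's Wald test on all livers called 5 higher, Acacb, Mid1ip1, Khk, G6pdx and Pgd. Acacb, the acetyl-CoA carboxylase of the mitochondrial membrane, stood at 113.3 and 143.9 CPM against 358.1 and 209.1 CPM. Mid1ip1, a partner that helps acetyl-CoA carboxylase assemble, stood at 87.7 and 73.3 CPM against 122.3 and 170.4 CPM (log2 difference 0.86, edgeR adjusted p = 0.0671). For Acss2 (acetyl-CoA synthetase) and Pklr (liver pyruvate kinase) the log2 differences were 0.66 and 0.64, at edgeR adjusted p = 0.235 and 0.401. The groups did not overlap for Acacb, Mid1ip1, Acss2 or Pklr, a separation that 21.7% of all tested genes showed in that direction.

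The 12 genes of elongation and desaturation had a median of -0.01 and 0 were called by edgeR or DESeq2. Scd2, the desaturase paralogue most used outside the liver, stood at 5.28 and 10.0 CPM against 13.9 and 7.15 CPM, with overlapping groups. The list of triglyceride assembly (14 genes, median 0.16) also holds lipases, Pnpla2, Pnpla5 and Lipg. The gene of this list that passed by edgeR was Pnpla5, a lipid droplet lipase of the same family as Pnpla3 (edgeR adjusted p = 0.0347). DESeq2 also called Gpam, the acyltransferase of the first step, higher and Agpat3 lower. Pnpla5 was nearly absent with the control guide, with 3 and 2 counts, and had 44 and 52 counts with the Bap1 guide. The ratio of summed counts per scaled library was 21.9 (95% exact interval 9.06 to 68.9, for counting error only).

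**Figure D3:**
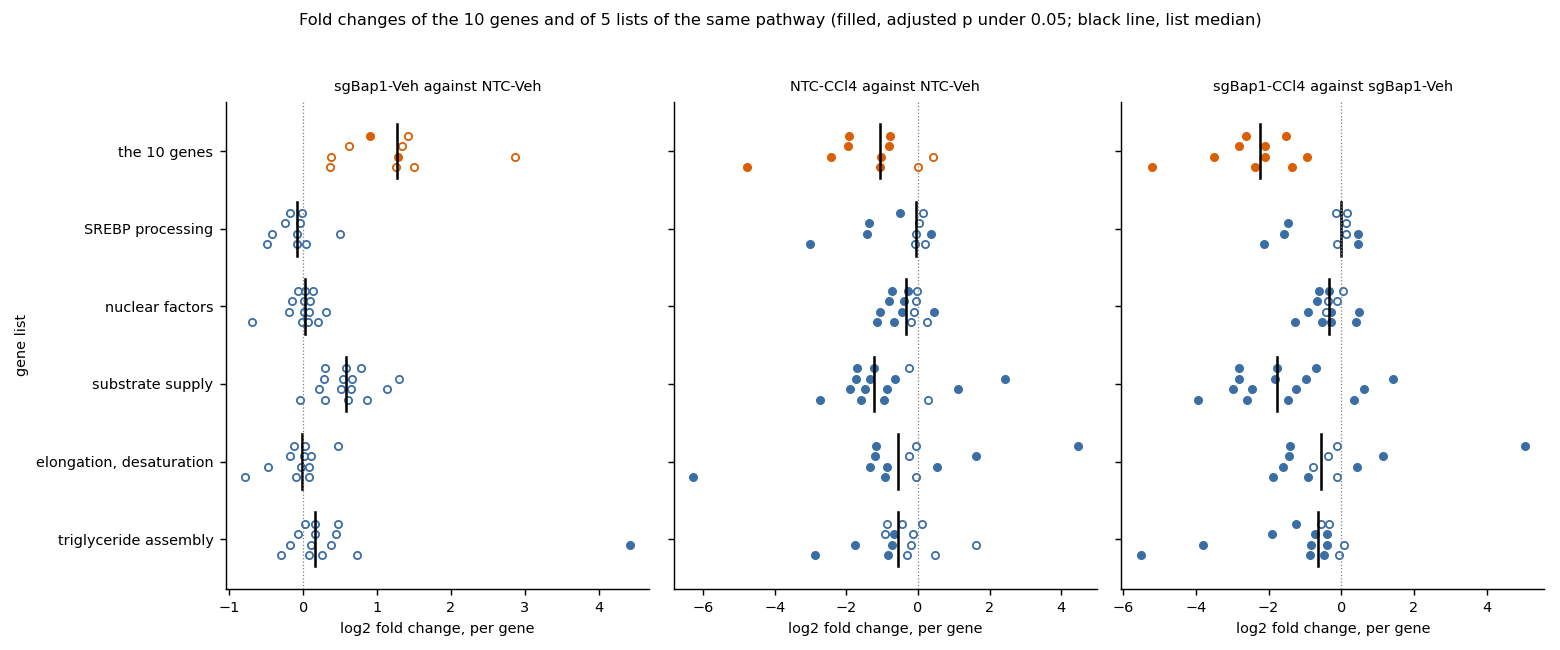
Log2 fold change of each gene (points) of the 10 fatty acid synthesis genes and of 5 further lists of the pathway, in 3 comparisons. Filled points have an edgeR adjusted p under 0.05 and black lines are list medians. With the Bap1 guide and vehicle the medians of the 10 genes (1.27) and of substrate supply (0.58) lie to the right of 0, and with CCl4 the same 2 medians lie farthest to the left in both guides.

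The effect of CCl4 under the control guide was asked by setting NTC-CCl4 against NTC-Veh. This comparison shares its NTC-Veh livers with the one above, so the directions of the 2 are not independent. Of the 10 genes, 8 were lower and called, against 26.6% of all tested genes called lower, and 0 were called higher, against 27.4%. The same 8 did not overlap between groups, which 35% of all tested genes showed in that direction. Their log2 fold changes ran from -4.79 for Thrsp to -0.78 for Acly, and Scd1 and Pnpla3 did not pass. The median of the 10 genes was -1.06, against 0.03 for all tested genes.

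Both regulators fell. Srebf1 stood at 199.1, 141.8 and 151.8 CPM in the NTC-CCl4 livers, all below the NTC-Veh livers, and was 2.1-fold lower (log2 fold change -1.07, 95% interval -1.39 to -0.756, edgeR adjusted p = 0.000126). Mlxipl stood at 96.7, 105.9 and 82.7 CPM and was 3.91-fold lower (log2 fold change -1.97, interval -2.33 to -1.6, edgeR adjusted p = 7.46e-06).

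The enzymes fell unequally. Fasn stood at 199.3, 136 and 241.2 CPM and was 5.35-fold lower (log2 fold change -2.42, interval -3.78 to -1.06, edgeR adjusted p = 0.00866). Elovl6 stood at 44.1, 33.6 and 49.1 CPM and was 3.78-fold lower (edgeR adjusted p = 0.000293). For Acaca, at 91.9, 81.2 and 98.1 CPM, the fall was 2.07-fold (edgeR adjusted p = 0.0074), a call that was lost without NTC-Veh replicate 2 (edgeR adjusted p = 0.0647). For Me1, at 121.5, 149.7 and 96.1 CPM, it was 1.75-fold (edgeR adjusted p = 0.00347). Acly, at 241.1, 214.8 and 242.6 CPM, was 1.71-fold lower (edgeR adjusted p = 0.000566). For Scd1 the values were 3905, 2670 and 3402 CPM, which overlapped with the NTC-Veh livers. Its log2 difference was -0.01, with a 95% interval from -0.578 to 0.555 (edgeR adjusted p = 0.974), so a change of either sign within that interval was not detectable.

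Thrsp had the largest fall of the 10 genes, from 408.8 and 352.9 CPM to 17.4, 12.8 and 11.0 CPM, 27.7-fold (log2 fold change -4.79, interval -6.96 to -2.62, edgeR adjusted p = 0.00342). Pnpla3 stood at 3.65, 1.69 and 2.16 CPM, which overlapped with the NTC-Veh livers (log2 difference 0.42, edgeR adjusted p = 0.594).

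These calls depended on the scaling. TMM factors ran from 0.786 to 0.851 in the vehicle livers and from 1.08 to 1.24 in the CCl4 livers. With library size alone the median of all genes shifted to 0.502 on the log2 scale, and 5 of the 10 genes were called, Srebf1, Mlxipl, Fasn, Elovl6 and Thrsp, against 12.1% of all genes called lower and 50% higher. With scaling on the 11 hepatocyte genes it shifted to 0.824, 6.6% of all genes were called lower and 61.1% higher, and 4 of the 10 were called, Mlxipl, Elovl6 and Thrsp lower and Scd1 higher (log2 difference 0.81). Mlxipl, Elovl6 and Thrsp were thus lower under all 3 scalings, also relative to hepatocyte genes, while Srebf1, Acly, Acaca, Fasn and Me1 did not pass relative to hepatocyte genes. Of those 11 hepatocyte genes, 7 were called lower by TMM (median -0.76), and all 7 marker genes of the pericentral hepatocytes were (median -3.15), their sum falling from between 12600 and 14400 CPM to between 561 and 935 CPM. Leukocyte markers were called higher for 6 of 8 and stellate cell markers for 5 of 5. The part of these changes in cell makeup in the 10 genes was not tested.

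Around these genes, 34 of the 65 genes of the 5 further lists were called lower and 7 higher by TMM. That balance depended on the scaling as well, with 20 lower and 22 higher by library size alone and 14 lower and 30 higher relative to hepatocyte genes. Of all tested genes, 26.6% were called lower and 27.4% higher by TMM. The shares were 12.1% and 50% by library size alone, and 6.6% and 61.1% relative to hepatocyte genes. The values that follow are on the TMM scale. Among the genes listed as SREBP processing, Lpin1, a phosphatidate phosphatase, had a log2 fold change of -3.03. Insig1, itself an SREBP target, had -1.42 and Scap -1.36, and Srebf2 fell by 0.52 on the log2 scale. Insig2 had 0.13 and did not pass (edgeR adjusted p = 0.479). Of the 14 genes listed as nuclear factors, 8 were lower by TMM, but 2 lower and 6 higher by library size alone. Relative to hepatocyte genes 0 were lower and 8 higher, so no direction held for this list. The shares of all tested genes moved the same way with the scaling, so these counts are not read as a trait of the list. The largest TMM changes in the list were those of Irs2 (-1.14), which is not itself a nuclear factor, Ppargc1b (-1.06) and Rxra (-0.82). None of them was called relative to hepatocyte genes. Nr1h3 had -0.43 by TMM (edgeR adjusted p = 0.000959) and 0.37 relative to hepatocyte genes (edgeR adjusted p = 0.0368). In substrate supply 11 of 15 were lower (median -1.23), 10 by library size alone and 7 relative to hepatocyte genes. Acss2 fell from 284.2 and 424.4 CPM to 50.4, 57.8 and 49.8 CPM (log2 fold change -2.75), Mid1ip1 had -1.72, Pklr -1.59 and Acacb -1.47. The 2 that were called higher were G6pdx (2.43) and Pgd (1.13), the NADPH-producing dehydrogenases of the pentose phosphate pathway, and in G6pdx the 3 livers stood at 18.7, 18.3 and 24.2 CPM against 3.81 and 3.74 CPM. Pgd was named after its value was seen, as the other of these 2.

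Elongation and desaturation held changes in both directions, 3 higher and 6 lower of 12 by TMM. By library size alone 5 were higher and 3 lower, and relative to hepatocyte genes 6 were higher and 2 lower. Elovl7, an elongase of saturated chains, had a log2 fold change of 4.46 and Scd2 of 1.63, from 5.28 and 10.0 CPM to 25.7, 20.5 and 24.8 CPM. Elovl3, an elongase of very long chains that was already low, stood at 3.87 and 2.19 CPM with vehicle and at 0.0213, 0.0751 and 0 CPM with CCl4. In the triglyceride assembly list 5 of 14 were lower and 0 higher by TMM. Among them were Lipg, endothelial lipase, at -2.89, Dgat2, the acyltransferase that uses newly made fatty acids, at -1.76 and Lpin2 at -0.83. By library size alone 2 were lower and 2 higher, and relative to hepatocyte genes 2 were lower and 6 higher, so no direction held for this list. Of all tested genes, 26.6%, 12.1% and 6.6% were called lower under these 3 scalings, and 27.4%, 50% and 61.1% higher. The counts of both lists moved with these shares and are not read as a trait of the lists.

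With the Bap1 guide, sgBap1-CCl4 against sgBap1-Veh, all 10 genes were called lower, against 28% of all tested genes called lower. All 10 were also separated between groups, which 34.9% of all tested genes showed in that direction. Scd1 and Pnpla3, which had not passed under the control guide, were 2.57-fold and 5.18-fold lower here. This comparison shares its sgBap1-Veh livers, which were high in all 10 genes, with the first comparison, so the 2 are not independent. The sgBap1-CCl4 means were 3698 CPM for Scd1 and 2.60 CPM for Pnpla3, against NTC-Veh means of 3352 and 1.86 CPM. Whether the 2 guides differed is given by the interaction below. The median log2 fold change of the 10 genes was -2.24, against 0.04 for all tested genes.

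Srebf1 stood at 159, 137.1 and 153.7 CPM in the sgBap1-CCl4 livers, 4.31-fold lower than with vehicle (log2 fold change -2.11, 95% interval -2.42 to -1.79, edgeR adjusted p = 2.33e-06). Mlxipl, at 89.5, 62.6 and 84.2 CPM, was 6.14-fold lower, and Acly, at 220, 227 and 231.1 CPM, was 4.29-fold lower. In these 3 genes the liver with fat cell transcripts, given second in each list, was not high, being between or below the other 2. In Fasn it was high, at 182.7, 706.3 and 163.5 CPM, and the log2 fold change of -2.81 became -3.83 without it. Thrsp stood at 6.95, 66.4 and 9.54 CPM (log2 fold change -5.20, and -6.95 without that liver), and Acaca at 102.3, 182 and 91.2 CPM (-0.93, and -1.31 without it). Scd1 stood at 2788, 4644 and 3661 CPM, Elovl6 at 27.8, 46.7 and 32.0 CPM, Me1 at 98.8, 126.5 and 119.3 CPM and Pnpla3 at 1.94, 4.67 and 1.19 CPM, with log2 fold changes of -1.36, -3.50, -1.53 and -2.37. All 10 were called lower without that liver too, against 26% of 16825 genes.

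Relative to the 11 hepatocyte genes, 7 of the 10 were called lower, against 9.93% of all genes called lower and 54.6% higher, and Acaca, Fasn and Scd1 were not. With library size alone 9 were, all but Acaca, against 14% of all genes called lower and 50.6% higher. Acaca was also not called without sgBap1-Veh replicate 1 (edgeR adjusted p = 0.0766). Cell type markers moved here too. By TMM 6 of 7 pericentral markers were called lower (median -3.52) and 4 of 11 hepatocyte markers lower and 1 higher, while 4 of 5 stellate markers were higher (median 2.03) and of 8 leukocyte markers 4 were higher and 1 lower. Their part in the 10 genes was not tested. In the further lists, 38 of 65 genes were called lower and 10 higher by TMM, against 28% and 29% of all tested genes, 23 lower and 19 higher by library size alone, and 21 lower and 20 higher relative to hepatocyte genes. Insig1 had a log2 fold change of -2.12, Lpin1 of -1.58 and Scap of -1.46, while Srebf2 (-0.14) and Insig2 (0.12) did not pass (edgeR adjusted p = 0.362 and 0.49). Ppargc1b (-1.27), Stat5b (-0.91) and Nr1h3 (-0.66) led the 8 of 14 genes of the nuclear factor list that were lower by TMM. Of that list 0 were lower and 5 higher relative to hepatocyte genes. In substrate supply 12 of 15 were lower and 3 higher (10 and 3 relative to hepatocyte genes), with Acss2 at -3.95, Mid1ip1 at -2.97, Pklr at -2.82 and Acacb at -2.58. Scd2 rose by 1.16 on the log2 scale, a call that was lost without sgBap1-CCl4 replicate 2 (0.88, edgeR adjusted p = 0.0674), Elovl7 rose by 5.06, and Elovl5 (-1.88) and Fads2 (-1.60), which act on polyunsaturated chains, fell. Of the 14 genes of the triglyceride assembly list 10 were lower by TMM, led by the lipases Pnpla5 and Lipg (-3.82) and by Dgat2 (-1.91). By library size alone 4 were lower and 0 higher, as were 4 and 0 relative to hepatocyte genes. Pnpla5 had 1, 1 and 3 counts with CCl4 against 44 and 52 with vehicle, a ratio of 49.4 (95% exact interval 20.4 to 155, for counting error only).

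After CCl4 the guides were compared directly as sgBap1-CCl4 against NTC-CCl4. All 10 genes overlapped between groups, while 20.3% of all tested genes did not. By edgeR 0 of 10 were called, against 0.329% of all tested genes called in either direction, and DESeq2's Wald test also called 0, against 1.72%. An unadjusted p under 0.05 was reached by edgeR with all livers in 0 of the 10 genes, against 14% of all tested genes. DESeq2's Wald test gave Acaca an unadjusted p of 0.0365. The median log2 difference of the 10 was 0.02. The 95% intervals still allowed differences, from -0.418 to 0.154 for Srebf1, from -0.303 to 0.218 for Acly, from -0.354 to 0.66 for Scd1 and from -0.357 to 2.1 for Fasn. Of the 65 genes of the further lists edgeR called 0, and DESeq2 called 2, Lpin1 higher and Angptl8 lower. By edgeR Lpin1 had a log2 difference of 1.37 (adjusted p = 0.0714), and it was called with library size alone (edgeR adjusted p = 0.0479) and relative to hepatocyte genes (edgeR adjusted p = 0.00859).

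The largest log2 differences of this comparison, 1.01 for Thrsp, 0.87 for Fasn and 0.47 for Acaca, went with the liver with fat cell transcripts. Relative to the mean of the other 2 sgBap1-CCl4 livers it held 8.06-fold the Thrsp level, 4.08-fold Fasn, 2.98-fold Pnpla3, 1.88-fold Acaca, 1.56-fold Elovl6 and 1.44-fold Scd1. Me1 (1.16-fold) and Acly (1.01-fold) were close to the other livers, and Srebf1 (0.877-fold) and Mlxipl (0.721-fold) were lower there. Without that liver the differences were -0.74 for Thrsp, -0.15 for Fasn and 0.10 for Acaca, and the median of the 10 was -0.14. Elovl6 and Thrsp then stood below all NTC-CCl4 livers in both remaining sgBap1-CCl4 livers, a separation that 14.9% of all tested genes showed in that direction, and neither passed (edgeR adjusted p = 0.511 and 0.241). The part of fat cell and stellate cell RNA in the levels of that liver was not tested.

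**Figure D4:**
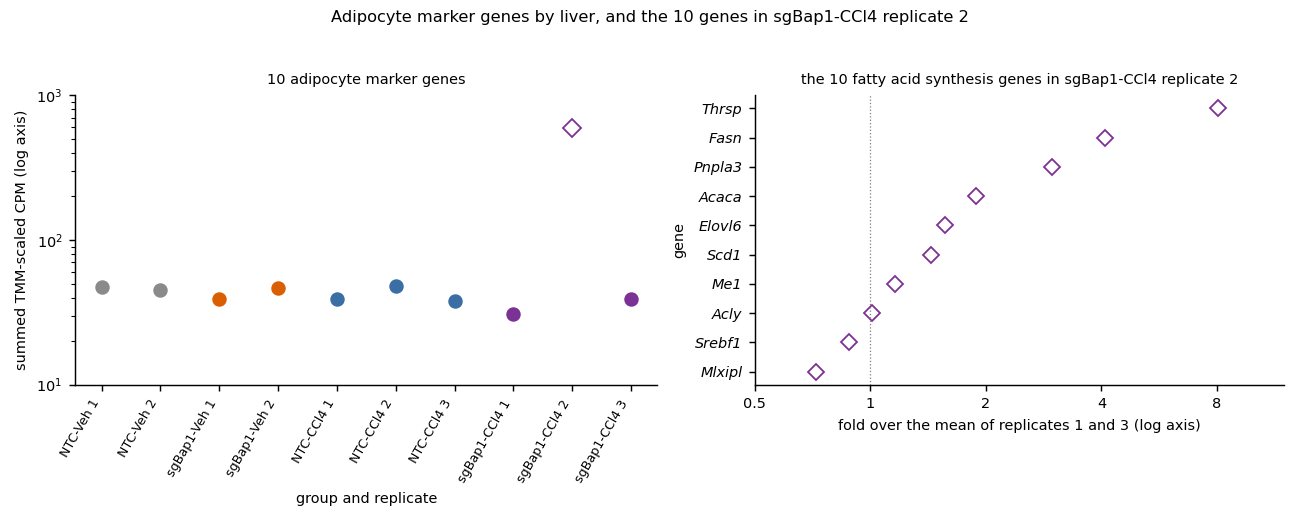
Left, summed level of 10 adipocyte marker genes (TMM-scaled CPM, log axis) in each liver. Right, level of each of the 10 fatty acid synthesis genes in sgBap1-CCl4 replicate 2 as a fold over the mean of the other 2 sgBap1-CCl4 livers (log axis, dotted line at 1). That liver sums to 597 CPM against at most 47.8 CPM in the others, and holds 8.06-fold the Thrsp level but 0.877-fold the Srebf1 level.

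Whether CCl4 changed the 10 genes by a different amount with the Bap1 guide was asked by the interaction of guide and CCl4. By edgeR 0 of the 10 were called, as were 0 of all 17015 tested genes (0%), while 7 of the 10 had an unadjusted p under 0.05, against 10.4% of all tested genes. The log2 interaction was negative for 9 of the 10, with a median of -0.88 against -0.02 for all tested genes. It was -1.32 for Acly (95% interval -1.74 to -0.911, edgeR adjusted p = 0.0694), -1.04 for Srebf1 (-1.49 to -0.583, 0.0956), -1.58 for Elovl6 (-2.45 to -0.714, 0.164), -1.35 for Scd1 (-2.16 to -0.544, 0.19) and -2.79 for Pnpla3 (-4.64 to -0.943, 0.248). For Mlxipl (-0.65) and Me1 (-0.72) the adjusted p was 0.36 and 0.356 by edgeR. Acaca (0.11), Fasn (-0.39) and Thrsp (-0.41) had intervals that included 0.

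DESeq2's Wald test called 5 of the 10 with a lower interaction, Srebf1, Acly, Scd1, Elovl6 and Pnpla3, against 1.09% of 27893 genes, so the count of calls depended on the tool. Leukocyte markers moved in the same direction, with a negative log2 interaction for 8 of 8 (median -1.07), 6 of them at an unadjusted p under 0.05, of which edgeR called 0 and DESeq2 called 3, Ptprc, Adgre1 and Lyz2. Their part in the interaction of the 10 genes was not tested. Without the liver that held fat cell transcripts edgeR called 0 of the 10, against 0.0416% of 16825 genes, and the smallest adjusted p was 0.0623, for Acly and Thrsp. The log2 interaction then was -2.16 for Thrsp, -1.41 for Fasn, -3.52 for Pnpla3 and -0.26 for Acaca, with a median of -1.37. The interaction contains both vehicle groups, so it repeats the higher vehicle level of these genes with the Bap1 guide and is not separate evidence of it.

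Scd1 held the largest share of the transcripts of the 10 genes. Their levels summed to 6939 and 5939 CPM in the NTC-Veh livers, to 16700 and 15420 CPM in the sgBap1-Veh livers, to 4920, 3547 and 4377 CPM in the NTC-CCl4 livers and to 3677, 6203 and 4547 CPM in the sgBap1-CCl4 livers. Scd1 made up between 45.8% and 60.3% of that sum in the vehicle livers and between 74.9% and 80.5% in the CCl4 livers, with no overlap. Without Scd1 the sums were 2957 and 3217 CPM (NTC-Veh), 6624 and 6496 CPM (sgBap1-Veh), 1015, 877.5 and 974.7 CPM (NTC-CCl4) and 889.1, 1559 and 885.8 CPM (sgBap1-CCl4). These sums weight each gene by its read count and are a description.

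Per kilobase of annotated exon, the mean levels in the NTC-Veh livers followed the order Scd1 (685 ± 182 CPM per kb, SD, n = 2), Thrsp (174 ± 18), Fasn (93.8 ± 8.71), Acly (75.6 ± 15.5), Mlxipl (67.1 ± 8.45), Srebf1 (61.3 ± 1.23), Me1 (55.7 ± 7.2), Elovl6 (24.8 ± 6.56), Acaca (10.9 ± 1.8) and Pnpla3 (1.2 ± 0.411). From Fasn to Me1 the neighbours differed by less than the sum of their SDs, and the other neighbours by more. In the sgBap1-Veh livers the first 4 places were the same, with Scd1 at 1940 and Thrsp at 465 CPM per kb. In the NTC-CCl4 livers Scd1 (680 CPM per kb) was followed by Acly (44.1), Me1 (31.8) and Srebf1 (29.1), and Thrsp (6.28) was the eighth of the 10. The exon length counts every annotated exon, so genes with many unused exons are understated on this scale.

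Over the 10 livers the log2 CPM of the 10 genes varied together, with Pearson r between 0.498 and 0.981 (median 0.879) over the 45 pairs, and between 0.623 and 0.993 (median 0.938) over the 9 livers without sgBap1-CCl4 replicate 2. These values describe mainly the differences between the 4 groups, which all pairs share, and carry no test. The 5 genes most like Srebf1 among 13380 with a mean of at least 1 CPM were Per2, a clock gene (r = 0.992), 1810008I18Rik (0.987), Zfp94 (0.983), Sos1 (0.983) and Slc25a44 (0.981). The member of the set most like Srebf1 was Elovl6 (r = 0.968), followed by Acly (0.967) and Mlxipl (0.955). The 5 most like Scd1 were Pnpla3 (0.938), Adcy4 (0.923), Clec4f, a Kupffer cell lectin (0.901), Rap1a (0.899) and Pmf1 (0.889). With Scd1, Srebf1 had r = 0.753.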

How the data were processed

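Bulk RNA-seq was performed on stranded mRNA libraries from the right lobe of the liver. The authors aligned paired reads of 50 bases with STAR 2.7.6a to GRCm38 and estimated counts with Salmon 1.4.0. The deposited table holds these estimated counts (expected counts) per gene symbol, 1 column per liver, without normalization. The strand setting of the counting is not given in the sources used here.

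The counts, rounded to integers, were fitted with edgeR 4.0.16 under R 4.3.3 (filterByExpr by the 4 groups, TMM, glmQLFit with robust = TRUE, 1 model of all 10 livers). Two-sided p-values were adjusted by Benjamini-Hochberg within each comparison (17015 genes tested, threshold 0.05), and the script was tested on simulated data. SEs are the log2 fold change divided by the square root of F. Log2 CPM used a prior count of 2. Intervals of counts are exact and cover counting error only. The depth of each liver is given with the first results, and no batch is named in the labels. Nothing in the labels says how replicates were drawn, so p-values measure the spread between these samples.

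The 10 genes, the lists and the rule for naming genes were chosen with earlier results of these data known. From the lists, a fixed set of 11 genes was taken, of which 10 are named (Srebf2, Scap, Insig1, Insig2, Nr1h3, Acacb, Acss2, Mid1ip1, Pklr and Scd2) and 1 is not reported here, and otherwise up to 3 genes per list and comparison with the largest log2 fold change among those called by edgeR. Further genes of the lists called by DESeq2, or without sgBap1-CCl4 replicate 2, were named after their values were seen. The alternatives were DESeq2 size factors, library size alone, scaling on 11 hepatocyte genes, no filter, a filter at a mean of 10 counts, only the 2 groups compared, a block on the replicate number, the older quasi-likelihood method, DESeq2's Wald test (DESeq2 1.42.0) and each liver left out. Gene positions, exon lengths and shared stretches come from GENCODE vM21, promoters from RefSeq.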

Additional observations from a re-analysis of the deposited data

How the results depend on the processing

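With the Bap1 guide and vehicle, the number of genes called out of 10 was 2 by the reported fit, 5 with DESeq2's Wald test, 0 with the replicate number as a block (0% of all tested genes called higher), and between 0 and 6 when 1 liver was left out (0% to 0.654% of all tested genes). It was 6 without sgBap1-CCl4 replicate 2, 2 without NTC-CCl4 replicate 1, 1 without NTC-Veh replicate 1, NTC-CCl4 replicate 2 or 3 or sgBap1-CCl4 replicate 1 or 3, and 0 without NTC-Veh replicate 2 or either sgBap1-Veh liver (a lone vehicle liver was assumed to vary like the other groups). With only the 2 groups compared 2 were called, Fasn and Thrsp in place of Srebf1 and Acly, against 0.117% of 15426 genes called higher. For NTC-CCl4 against NTC-Veh the 8 calls, all lower, became 5 with library size alone. With hepatocyte scaling 4 were called, 3 lower and 1, Scd1, higher, which was not among the 8. For the interaction the 0 calls became 1 with no filter (Acly, against 0.122% of 27948 genes) and 5 with DESeq2's Wald test. The cause was not tested.

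The sign changed for Acly in NTC-CCl4 against NTC-Veh with hepatocyte scaling (0.0041 on the log2 scale), and for Scd1 there with library size alone (0.47), hepatocyte scaling (0.81) and livers left out (-0.26 to 0.29). In sgBap1-CCl4 against NTC-CCl4 it changed with hepatocyte scaling for Acly (0.054) and Me1 (0.024). With livers left out it changed there for Srebf1 (-0.23 to 0.030), Fasn (-0.15 to 1.20), Scd1 (-0.044 to 0.32), Me1 (-0.24 to 0.078), Thrsp (-0.74 to 1.47) and Pnpla3 (-0.66 to 0.46). In the interaction it changed with livers left out for Acaca (-0.26 to 0.28) and Thrsp (-2.16 to 0.049). Of these, Acly in NTC-CCl4 against NTC-Veh had been called by the reported fit, and the others had not.

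No sign of pairing by replicate number was seen, but so few livers per group cannot show whether samples were paired, and the labels do not say. Deviations of same-numbered livers from their group means correlated at -0.149 to 0.102 over 13 pairs. In groups of 2 the deviations of both livers mirror each other, so these pairs are not independent. Of the 6 CCl4 livers, 0 were most alike with their own number in the other guide. With that block the counts of genes called in the other comparisons and in the interaction stayed at 8, 10, 0 and 0, against 24% and 25.4% of all tested genes called lower and 0.141% and 0% called in either direction. With 2 vehicle livers per guide, differences of these genes under the intervals given could not be detected.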

Other observations

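Of the cell type lists not described above, the 5 cholangiocyte markers summed to 4.49 to 7.9 CPM in the NTC-Veh livers, 6.3 to 7 CPM in the sgBap1-Veh livers, 12.1 to 17.5 CPM in the NTC-CCl4 livers and 12.1 to 17.9 CPM in the sgBap1-CCl4 livers. The 5 endothelial markers summed to between 132 and 178 CPM in all 10 livers. Single genes differed. In NTC-CCl4 against NTC-Veh 2 endothelial markers were called higher and 3 were not called. Mean Pecam1 was 31.6 against 12.9 CPM and mean Lyve1 22.0 against 7.24 CPM. In sgBap1-CCl4 against sgBap1-Veh 2 were called higher and 2 lower. Of the cholangiocyte markers 1 was called, higher, in NTC-CCl4 against NTC-Veh. There mean Sox9 was 9.82 against 2.13 CPM and mean Epcam 1.25 against 1.62 CPM.

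Within the NTC-CCl4 group, replicate 1 lay above the group mean of log2 CPM in all 10 fatty acid synthesis genes, by a median of 0.0856. Within the sgBap1-CCl4 group, replicate 2 did so in 8 of 10, by a median of 0.395, and replicate 1 in 2 of 10, with a median of -0.216. The ratio of Fasn to Scd1 counts stood at 0.241 to 0.402 in the 4 vehicle livers, at 0.0447 to 0.0709 in 5 of the 6 CCl4 livers and at 0.152 in sgBap1-CCl4 replicate 2.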
